A study of Mus musculus with 14 samples.

Results

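Of the 24062 genes in a table of bulk RNA sequencing counts from mouse plexiform neurofibroma (PN), 10 genes known from the fibroblasts of the nerve sheath were followed. They were taken by symbol: Pi16, Clec3b and Dpt as genes of epineurial fibroblasts, Sox9, Osr2 and Etv1 as genes of endoneurial fibroblasts, and Slc2a1, Cldn1, Moxd1 and Tjp1 as genes of perineurial cells. All 10 were present in the table and passed the filter on low counts in each of the 4 comparisons. The layer names are working names, because the libraries were made from whole tissue and no layer was isolated, and because the study's own single-cell marker lists give Pi16, Clec3b and Dpt to a cluster that it named endoneurial.

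The controls were 3 dorsal root ganglia (DRG3, DRG4 and DRG5) from Nf1fl/fl mice, which carry the floxed Nf1 alleles without Cre. Their sample labels say DRG, while the methods of the study name control DRGs/nerves, so the tissue may also hold nerve. The tumors were 5 slow-growing and 6 fast-growing PNs from DhhCre;Nf1fl/fl mice, in which the Dhh promoter drives Cre in the Schwann cell lineage. The study states that only Schwann cells lose Nf1 in this model, and the libraries do not show the Nf1 state of fibroblasts. All mice shared a mixed C57BL/6, I-129 and FVBN background and received no drug. By the methods of the study, tumors were scanned at 7 and 9 months of age, a volume gain above 35 mm3 made a PN fast-growing, a change under 5 mm3 made it slow-growing, and tissue was taken at 9 months, while a figure legend of the study speaks of 7-month PNs for these RNA data. Sex and preparation batch were not given for the libraries, so a batch of control against tumor preparation and the tissue itself cannot be told apart. Each library carries its own number, but nothing says that the 3 DRGs came from separate mice, so p-values measure the spread between these samples.

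A peripheral nerve is wrapped in concentric layers of connective tissue. The epineurium is a loose outer coat of collagen, vessels and fat, the perineurium is a sleeve of flat cells joined by tight junctions that forms a diffusion barrier around each fascicle, and the endoneurium is the matrix between the nerve fibers, where single fibroblasts lie among Schwann cells. A neurofibroma grows inside this sheath and holds many fibroblasts and much collagen, while the perineurial sleeve around the fascicles is often disrupted.

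Libraries held 9596773 to 17594164 counts on genes. The ribosomal RNA gene Rn45s took 16.2% to 17.59% of these in the controls and 3.48% to 18.1% in the PNs, of which 10 of 11 lay below every control, and its part in the differences between PN and control was not tested. Levels are given in CPM, counts scaled to the size of the library with edgeR's TMM factors. Nf1 itself, by the study's account lost only in Schwann cells, lay at 131 to 229 CPM in the controls, 224 to 293 CPM in slow-growing PNs and 224 to 276 CPM in fast-growing PNs, so the bulk level does not check the genotype. The fibroblast markers Pdgfra, Col1a1, Col1a2, Col3a1, Dcn and Lum were present in every group, with a summed level of 1915 to 3710 CPM in the controls, 1249 to 5565 CPM in slow-growing PNs and 5473 to 10340 CPM in fast-growing PNs. The tissues around the nerve differed between groups as well: 13 fat markers summed to 4137 to 5929 CPM in the controls, 22.5 to 3314 CPM in slow-growing PNs and 20.7 to 296 CPM in fast-growing PNs, and 15 skeletal muscle markers summed to 11380 to 40790, 79.9 to 13230 and 401 to 8012 CPM. No marker of either list was at 0 throughout a group. Among the controls, DRG3 carried more Schwann cell, neuron and fibroblast marker RNA than DRG4 and DRG5 (Schwann cell markers summed to 6170, 2316 and 2032 CPM), and the fast-growing tumor PN 1191 was nearly free of neuron markers (33.4 CPM, against 1547 to 12390 CPM in the other 13 libraries). In whole tissue, fewer cells of a type and less RNA per cell cannot be told apart.

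Promoter sequences of all 10 members were looked up in RefSeq. Of these, 7 had an entry, and Clec3b, Sox9 and Osr2 had none. Each line gives the 120 bases just before the RefSeq start on GRCm38.p6, 5′ to 3′ on the strand of the gene, with matches to a searched motif in capitals. For Tjp1, Pi16 and Etv1 the whole window lies inside the annotated gene. These genes span chr7:65296165-65527781, chr17:29317680-29330593 and chr12:38779380-38870484, so their windows are not those of the outermost start. The windows of Slc2a1, Dpt and Cldn1 enter the annotated gene in part. The regions are Slc2a1 at chr4:119108625-119108744, plus strand; Tjp1 at chr7:65371245-65371364, minus strand; Cldn1 at chr16:26371840-26371959, minus strand; Moxd1 at chr10:24223397-24223516, plus strand; Dpt at chr1:164796543-164796662, plus strand; Pi16 at chr17:29318762-29318881, plus strand; and the first of the 2 Etv1 entries at chr12:38779962-38780081, plus strand.
Slc2a1: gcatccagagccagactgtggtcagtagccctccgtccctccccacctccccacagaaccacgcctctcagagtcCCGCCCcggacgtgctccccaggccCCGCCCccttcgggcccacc
Tjp1: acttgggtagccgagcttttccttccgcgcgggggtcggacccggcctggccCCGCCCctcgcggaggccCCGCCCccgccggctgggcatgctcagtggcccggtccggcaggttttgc
Cldn1: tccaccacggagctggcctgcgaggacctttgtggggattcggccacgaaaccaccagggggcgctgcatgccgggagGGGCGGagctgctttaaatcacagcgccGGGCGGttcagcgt
Moxd1: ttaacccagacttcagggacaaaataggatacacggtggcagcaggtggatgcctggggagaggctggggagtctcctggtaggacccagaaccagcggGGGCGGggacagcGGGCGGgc
Dpt: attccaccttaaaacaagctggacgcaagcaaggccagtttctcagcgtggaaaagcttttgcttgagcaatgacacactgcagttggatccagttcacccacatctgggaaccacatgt
Pi16: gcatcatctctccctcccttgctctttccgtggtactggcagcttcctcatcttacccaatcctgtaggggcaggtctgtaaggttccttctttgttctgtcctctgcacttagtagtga
Etv1: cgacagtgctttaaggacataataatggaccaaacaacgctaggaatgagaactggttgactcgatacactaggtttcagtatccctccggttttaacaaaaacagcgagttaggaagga
The motifs were searched on both strands. The TATA box was searched as TATAAA. The GC box was searched as GGGCGG. The core of ETS factor sites was searched as CCGGAA. The core of SOX factor sites was searched as ACAAT. The GC box matched in all 4 perineurial members, with 2 matches in each, and in none of the other 3 windows, while it matched in 26.5% of the 32851 promoter windows of the same length. The TATA box, the ETS core and the SOX core, found in 6.34%, 8.07% and 14.1% of all windows, matched in none of the 7, and the second Etv1 entry, not printed here, holds 1 TATA box match and 2 SOX core matches. The GC content of the perineurial windows was 71.7% for Slc2a1, 75.8% for Tjp1, 66.7% for Cldn1 and 64.2% for Moxd1, against a median of 54.2% over all windows, and it was 48.3% for Dpt, 50.8% for Pi16 and 42.5% for Etv1. These matches are a description of letters and not of binding.

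The first question was whether the nerve sheath genes stand at another level in PN than in control DRG. Etv1 rose 2.80-fold and Pi16 fell to 0.323 of its control level when all 11 PNs were set against the 3 controls, and no other member passed the edgeR test with its main settings. In this comparison 2 of the 10 members were called by the edgeR quasi-likelihood test at a Benjamini-Hochberg adjusted p under 0.05, while 26.3% of the 16283 genes tested were called. By direction these were 12.9% higher and 13.4% lower, and 38.9% of all genes had an unadjusted p under 0.05. The groups did not overlap for 3 members (Clec3b and Dpt lower, Etv1 higher), against 17.7% of all genes tested, 8.18% higher and 9.48% lower. In fast-growing PNs against control, Etv1, Cldn1 and Moxd1 rose, Clec3b and Dpt fell, and these same 5 members were those whose groups did not overlap; over all genes tested 31.4% were called, 14.8% higher and 16.7% lower, 41.8% had an unadjusted p under 0.05, and 32.4% did not overlap, 17.2% higher and 15.2% lower. In slow-growing PNs against control no member was called by edgeR, where 11.3% of all genes tested were, 4.12% higher and 7.13% lower, although 4 of 10 had an unadjusted p under 0.05, against 30.3% of all genes. DESeq2 and limma-voom each called 3 members there, and 3529 and 1844 genes of the whole table, against 1769 by edgeR. Clec3b, Dpt and Etv1 did not overlap there, against 23.4% of all genes tested, 11% higher and 12.4% lower. Read against these shares, 2, 5 and 0 of 10 members called by edgeR set the list apart from all genes in none of these comparisons, which share their controls.

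**Figure D1:**
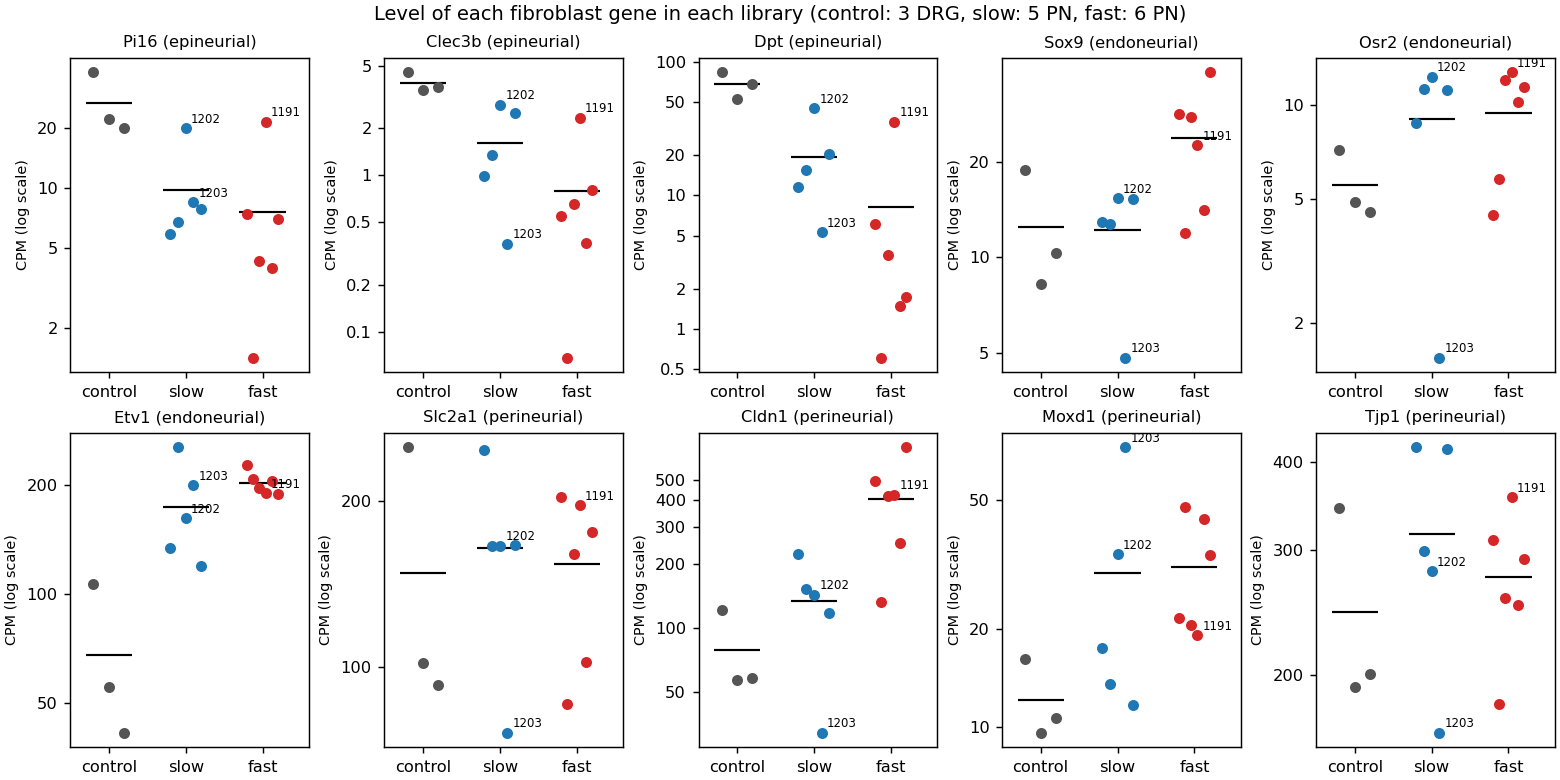
Level of each of the 10 genes in every library, in CPM on a log axis with its own range per panel. Each point is 1 library, bars are group means, and 1202, 1203 and 1191 mark PNs named in the text; Clec3b and Dpt lie higher in the 3 controls than in every PN, Pi16 does so against 9 of 11 PNs, and Etv1 lies between 119 and 255 CPM in all 11 PNs against 41.3 to 106 CPM in the controls.

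The 3 epineurial genes stood lower in PN than in control: Pi16 fell over all PNs, and Clec3b and Dpt fell in fast-growing PN. Dpt encodes dermatopontin, a small matrix protein that binds collagen fibrils. It lay at 83.3, 52.5 and 68.2 CPM in DRG3, DRG4 and DRG5, at 11.5, 15.4, 44.99, 5.29 and 20.4 CPM in the slow-growing PNs 1079, 1198A, 1202, 1203 and 1206, and at a lowest 0.612, a median 2.67 and a highest 35.7 CPM in the 6 fast-growing PNs. Every PN lay below every control, the closest being PN 1202 among the slow-growing and PN 1191 among the fast-growing tumors. The log2 fold change was -3.09 ± 1.03 (SE) for fast-growing PN against control (edgeR adjusted p = 0.0462), -1.84 ± 0.56 for slow-growing PN (edgeR adjusted p = 0.0704) and -2.35 ± 0.85 for all PNs (edgeR adjusted p = 0.0533). The call in fast-growing PN rested on the full set of libraries: it was lost when any 1 of the 3 controls or of PNs 1053, 1071, 1179, 1214 and 1216 was left out (edgeR adjusted p = 0.0535 to 0.104) and was kept without PN 1191, at -4.68 (edgeR adjusted p = 0.000493). The call was also lost with no filter on low counts (-3.03, edgeR adjusted p = 0.0520) and with a length and GC trend removed (-2.91, edgeR adjusted p = 0.0608), with a fold change about as large. Dpt passed the test over all PNs when PN 1202, 1071 or 1191 was left out (edgeR adjusted p = 0.0202, 0.0476 and 0.0312), and over the slow-growing PNs without 1202 (-2.37, edgeR adjusted p = 0.0208). With every library kept, it passed over all PNs in 4 of 9 other settings. These were DESeq2 (adjusted p = 0.0325), limma-voom (-3.44, adjusted p = 0.00561), the filter of 10 counts and 1 fit of all groups (edgeR adjusted p = 0.0498 and 0.0368). In slow-growing PN 3 of 9 did: DESeq2, limma-voom (adjusted p = 0.0136 and 0.0345) and the general fibroblast covariate (edgeR adjusted p = 0.0455).

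Clec3b, which encodes the plasminogen-binding lectin tetranectin, was the member with the lowest counts. It lay at 4.58, 3.51 and 3.701 CPM in the controls, at 0.988, 1.35, 2.84, 0.365 and 2.51 CPM in the slow-growing PNs, and at a lowest 0.0680, a median 0.606 and a highest 2.35 CPM in the fast-growing PNs. Again every PN lay below every control; the lowest value, in PN 1071, is under the level that 3 counts give in that library (0.204 CPM). The log2 fold change was -2.33 ± 0.69 for fast-growing PN (edgeR adjusted p = 0.0290), -1.32 ± 0.56 for slow-growing PN (edgeR adjusted p = 0.154) and -1.76 ± 0.64 for all PNs (edgeR adjusted p = 0.0566). Leaving out any 1 control, or PN 1053, 1179, 1214 or 1216, ended the call in fast-growing PN (edgeR adjusted p = 0.0554 to 0.0748), while without PN 1191 it stood at -3.02 (edgeR adjusted p = 0.00283). With a length and GC trend removed the value in fast-growing PN was -1.64 (edgeR adjusted p = 0.154) and that over all PNs was -1.20 (edgeR adjusted p = 0.245). Over all PNs, leaving out PN 1202, 1206, 1071 or 1191 gave a call (edgeR adjusted p = 0.0294, 0.0388, 0.0414 and 0.0387). So did 4 of 9 other settings with every library kept: DESeq2 (adjusted p = 0.0403), limma-voom (-2.32, adjusted p = 0.00886), the filter of 10 counts and 1 fit of all groups (edgeR adjusted p = 0.0480 and 0.0393).

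Pi16 encodes a peptidase inhibitor that marks a fibroblast population found around vessels and in the outer coats of many tissues. It lay at 37.8, 22.2 and 19.9 CPM in the controls, at 5.93, 6.76, 19.9, 8.49 and 7.91 CPM in the slow-growing PNs and at a lowest 1.43, a median 5.69 and a highest 21.4 CPM in the fast-growing PNs. Of the 11 PNs, 9 lay below every control, and PN 1202 and PN 1191 reached into the control range. The log2 fold change was -1.63 ± 0.52 over all PNs (edgeR adjusted p = 0.0330), -1.48 ± 0.42 for slow-growing PN (edgeR adjusted p = 0.0548) and -1.84 ± 0.65 for fast-growing PN (edgeR adjusted p = 0.0566). The call over all PNs was lost without DRG3 (-1.29, edgeR adjusted p = 0.144), DRG4 (-1.75, edgeR adjusted p = 0.0746) or DRG5 (-1.80, edgeR adjusted p = 0.0710), and also with the general fibroblast score as covariate (-1.66, edgeR adjusted p = 0.0583) and with a length and GC trend removed (-1.62, edgeR adjusted p = 0.0502). Without PN 1191 Pi16 fell in fast-growing PN (-2.49, edgeR adjusted p = 0.00366), and without PN 1202 it fell in slow-growing PN (-1.87, edgeR adjusted p = 0.0109). With every library kept, 3 of 8 other settings called Pi16 in fast-growing PN: DESeq2, limma-voom (adjusted p = 0.0209 and 0.0131) and 1 fit of all groups (edgeR adjusted p = 0.0371). In slow-growing PN 2 of 9 did, DESeq2 and limma-voom (adjusted p = 0.00871 and 0.0268).

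Fat marker RNA fell along with these genes. All 13 fat markers were called lower in fast-growing PN against control, with a median log2 fold change of -5.46, and 4 of 13 were over all PNs, with a median of -2.54. Skeletal muscle markers fell as well, 13 of 15 in fast-growing PN (median -4.19) and 8 of 15 over all PNs (median -3.16). Of 9 endothelial markers 5 and 3 fell, with medians of -1.16 and -0.92. When the fat and skeletal muscle scores were entered as covariates none of the 3 epineurial genes was called in any comparison, and the values moved in different ways. Over all PNs the log2 fold change was 0.0283 ± 1.22 for Dpt, -0.59 ± 0.92 for Clec3b and -0.79 ± 0.93 for Pi16. In fast-growing PN it was 0.60 ± 3.19 for Dpt, -2.50 ± 2.36 for Clec3b, as large as without the covariates but with a wider error, and -1.30 ± 1.88 for Pi16. In that fast-growing fit 0 genes of the whole table were called by edgeR, so a lost call says little there. The fat score did not overlap between control and PN libraries (7.52 to 7.77 against 0.819 to 6.79, mean log2(CPM + 1)), so in that fit group and fat content cannot be told apart. Of 11 other epineurial genes, 0 passed the edgeR test over all PNs (2 had an unadjusted p under 0.05), with a median log2 fold change of 0.18 beside 0.10 over all genes tested. Of all genes tested, 26.3% were called there and 38.9% had an unadjusted p under 0.05.

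Among the endoneurial genes Etv1 rose in PN, and the levels of Sox9 and Osr2 overlapped between the groups. Etv1 encodes an ETS-family transcription factor that some sensory neurons also make. It lay at 106, 55.4 and 41.3 CPM in the controls, at 134, 255, 162, 200 and 119 CPM in the slow-growing PNs and at a lowest 189, a median 201 and a highest 228 CPM in the fast-growing PNs. All 11 PNs lay above all controls, and the 6 fast-growing PNs were close together, with a coefficient of variation of 7.15% against 31.4% in slow-growing PNs. The log2 fold change was 1.49 ± 0.28 over all PNs (edgeR adjusted p = 0.00168) and 1.54 ± 0.26 for fast-growing PN (edgeR adjusted p = 0.00179). Both calls were kept in every fit that left out 1 library, with edgeR adjusted p of at most 0.0166 and 0.0121. In slow-growing PN it was 1.32 ± 0.37 (edgeR adjusted p = 0.0518), and without DRG3 it passed, at 1.79 (edgeR adjusted p = 0.0176). Etv1 also passed in slow-growing PN with RLE factors, no filter, the filter of 10 counts and all groups in 1 fit (edgeR adjusted p = 0.0484, 0.0498, 0.0422 and 0.00661), with DESeq2 (adjusted p = 0.00360) and with limma-voom (adjusted p = 0.0357), at 1.35 to 1.38. In PN 1191, the tumor nearly free of neuron markers, Etv1 stood at 190.3 CPM, inside the range of the other fast-growing PNs, and the part of neurons in the Etv1 level of the other libraries was not tested. With the muscle and fat scores as covariates neither call held: the log2 fold change was 0.95 ± 0.42 over all PNs (edgeR adjusted p = 0.242) and 1.19 ± 0.94 in fast-growing PN (edgeR adjusted p = 0.913), where 0 genes of the whole table were called. The Schwann cell list moved with Etv1, with 3 of 7 markers called higher over all PNs and 4 of 7 in fast-growing PN, and its part in the result was not tested.

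Sox9, a SOX-family transcription factor of many connective tissue cells, lay at 18.9, 8.23 and 10.4 CPM in the controls, at 12.9, 12.8, 15.3, 4.84 and 15.3 CPM in the slow-growing PNs and at a lowest 12.0, a median 25.1 and a highest 38.3 CPM in the fast-growing PNs. The slow-growing PNs lay within or below the control range, and 4 of 6 fast-growing PNs lay above it. Its log2 fold change was 0.89 ± 0.42 for fast-growing PN (edgeR adjusted p = 0.135), -0.06 ± 0.41 for slow-growing PN (edgeR adjusted p = 0.929) and 0.57 ± 0.47 over all PNs (edgeR adjusted p = 0.396). Osr2, an odd-skipped family transcription factor, ranged from 4.55 to 7.17 CPM in the controls, from 1.55 to 12.3 CPM in slow-growing PNs and from 4.43 to 12.7 CPM in fast-growing PNs. Of 11 PNs, 8 lay above the controls and 2 below them, PN 1203 and PN 1053. Over all PNs its log2 fold change was 0.73 ± 0.47 (edgeR adjusted p = 0.264). Without PN 1203, Osr2 passed the test in slow-growing PN (0.96, edgeR adjusted p = 0.0400).

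Of the 4 perineurial genes, Cldn1 and Moxd1 rose in fast-growing PN, and no difference was called for Slc2a1 and Tjp1. Cldn1 encodes claudin-1, a sealing protein of tight junctions. It lay at 122, 56.6 and 58.3 CPM in the controls, at 222, 152, 144, 32.1 and 117 CPM in the slow-growing PNs and at a lowest 132, a median 422 and a highest 708 CPM in the fast-growing PNs. All fast-growing PNs lay above all controls, while the slow-growing PNs ran from below to above them. Cldn1 had a log2 fold change of 2.32 ± 0.53 for fast-growing PN (edgeR adjusted p = 0.00921), 0.73 ± 0.55 for slow-growing PN (edgeR adjusted p = 0.380) and 1.83 ± 0.74 over all PNs (edgeR adjusted p = 0.0792). The call in fast-growing PN was kept in each of the 9 fits that left out 1 library (edgeR adjusted p = 0.00215 to 0.0460), and over all PNs Cldn1 passed without PN 1203 (1.95, edgeR adjusted p = 0.0267). With every library kept, it passed over all PNs in 2 of 9 other settings, DESeq2 (1.79, adjusted p = 0.0199) and 1 fit of all groups (1.56, edgeR adjusted p = 0.0470). With the muscle and fat scores as covariates the value in fast-growing PN was -0.90 ± 1.203 (edgeR adjusted p = 0.978). With the general fibroblast score as covariate, a fit added after seeing the data, Cldn1 stood at 0.25 ± 0.36 over all PNs (edgeR adjusted p = 0.598) and at 0.24 ± 0.34 in slow-growing PN (edgeR adjusted p = 0.616).

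Moxd1 encodes a monooxygenase related to dopamine beta-hydroxylase. It lay at 16.2, 9.62 and 10.7 CPM in the controls, at 17.56, 13.5, 34.0, 72.4 and 11.7 CPM in the slow-growing PNs and at a lowest 19.1, a median 27.7 and a highest 47.4 CPM in the fast-growing PNs. All fast-growing PNs lay above all controls, and among slow-growing PNs 3 of 5 did, the highest of all libraries being PN 1203. Moxd1 had a log2 fold change of 1.30 ± 0.35 for fast-growing PN (edgeR adjusted p = 0.0186), 1.24 ± 0.62 for slow-growing PN (edgeR adjusted p = 0.206) and 1.32 ± 0.51 over all PNs (edgeR adjusted p = 0.0705). In fast-growing PN the call was lost without DRG4 (edgeR adjusted p = 0.0806), without DRG5 (edgeR adjusted p = 0.0801) and with all 3 groups in 1 edgeR fit (adjusted p = 0.0856). It was also lost with the muscle and fat scores as covariates, where the value was 1.78 ± 1.30 (edgeR adjusted p = 0.898). Over all PNs Moxd1 passed without PN 1206 (1.41, edgeR adjusted p = 0.0446), with the general fibroblast score as covariate (1.61, edgeR adjusted p = 0.0297) and with DESeq2 (1.27, adjusted p = 0.0272). Without PN 1203 the value in slow-growing PN was 0.64 (edgeR adjusted p = 0.282).

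Slc2a1 encodes the glucose transporter GLUT1 and Tjp1 the tight junction scaffold ZO-1, and both are also made by the endothelium of nerve vessels. Slc2a1 lay at 249.8, 101 and 92.7 CPM in the controls, at 248, 166, 166, 75.8 and 166 CPM in the slow-growing PNs and at a lowest 85.3, a median 168 and a highest 203 CPM in the fast-growing PNs. Tjp1 lay at 344, 193 and 201 CPM in the controls, at 419, 299, 280.2, 166 and 418 CPM in the slow-growing PNs and at a lowest 182, a median 275 and a highest 356 CPM in the fast-growing PNs. For both genes the 3 groups overlapped, and DRG3 was the highest control, as it was for every other member. Over all PNs the log2 fold changes were 0.10 ± 0.35 for Slc2a1 (edgeR adjusted p = 0.862) and 0.26 ± 0.27 for Tjp1 (edgeR adjusted p = 0.517), and the sign of Slc2a1 turned without DRG4, without DRG5 or without PN 1079 (-0.11, -0.15 and -0.0060). Of the 9 endothelial markers, 3 fell over all PNs (Kdr, Egfl7 and Esam) and 5 fell in fast-growing PN, and their part in these levels was not tested.

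**Figure D2:**
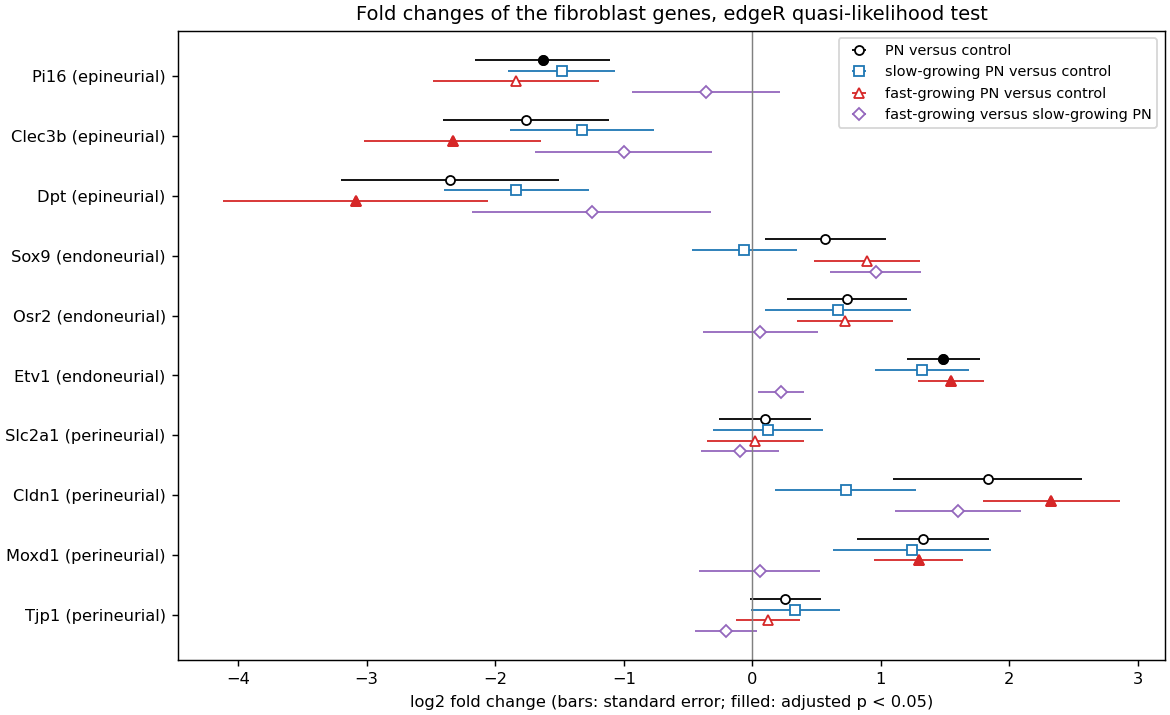
Log2 fold change of each gene in 4 comparisons, with bars of 1 standard error, from the edgeR quasi-likelihood test. Filled symbols have an adjusted p under 0.05: Pi16 and Etv1 over all PNs, and Clec3b, Dpt, Etv1, Cldn1 and Moxd1 in fast-growing PN against control.

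The design also asks which genes differ between fast-growing and slow-growing PN. No member was called by edgeR, where 1.27% of the 15465 genes tested were, 0.802% higher and 0.466% lower, and 2 of 10, Cldn1 and Sox9, had an unadjusted p under 0.05, against 20.4% of all genes. DESeq2 called Cldn1, limma-voom none. The Cldn1 level was 405 ± 199 CPM (SD, n = 6) in fast-growing and 133 ± 69 CPM (SD, n = 5) in slow-growing PNs, a log2 difference of 1.60 ± 0.49 (edgeR adjusted p = 0.0973; DESeq2 adjusted p = 0.0155), and 5 of 6 fast-growing PNs lay above all slow-growing PNs. Sox9 stood at 23.8 ± 9.8 CPM (SD, n = 6) and 12.2 ± 4.3 CPM (SD, n = 5), a log2 difference of 0.96 ± 0.35 (edgeR adjusted p = 0.153), with 4 of 6 fast-growing PNs above all slow-growing ones. Dpt and Clec3b had log2 differences of -1.25 ± 0.93 and -1.002 ± 0.69 (edgeR adjusted p = 0.477 and 0.441), and without PN 1191 that of Dpt was -2.84 (edgeR adjusted p = 0.0958). No member had groups that did not overlap, against 3.01% of all genes tested, 2.1% higher and 0.912% lower. A call in 1 growth group and not in the other, as for Cldn1, is therefore not a difference between them by this test.

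Set on a scale per length (CPM per kilobase of the longest annotated transcript), the order of the members changed between groups. In the controls Slc2a1 was first at 45.4 ± 27.1, then Dpt at 39.4 ± 8.9, Tjp1 at 34.9 ± 12.1 and Cldn1 at 19.1 ± 9.0 (SD, n = 3), and each overlapped with the next. In fast-growing PNs Cldn1 was first at 97.6 ± 48.1, followed by Slc2a1 at 47.2 ± 15.1, Tjp1 at 39.0 ± 8.4 and Etv1 at 30.9 ± 2.2 (SD, n = 6), and Dpt had gone to place 7 at 4.76 ± 7.90. Only the step from Etv1 to Moxd1, at 10.04 ± 4.02, was clear of overlap in the fast-growing PNs. Osr2 was lowest in the controls, at 2.01 ± 0.52, and Clec3b was lowest in both PN groups, at 1.62 ± 1.05 and 0.807 ± 0.805.

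The other genes of each layer came from lists written for this purpose with earlier results of these data known. Their counts are therefore a description and not a test of a layer. Of 9 other endoneurial genes, 7 rose over all PNs, 8 rose in fast-growing PN and 1 rose in slow-growing PN, with median log2 fold changes of 1.97, 2.33 and 1.17; over all genes tested 12.9%, 14.8% and 4.12% were called higher. Schwann cell markers moved with them, with 3, 4 and 1 of 7 called higher, and their part in these counts was not tested. Abca8a, a lipid transporter of the ABC family, was called in all 3 comparisons and went from 213 ± 70 CPM (SD, n = 3) in the controls to 649 ± 301 CPM (SD, n = 5) in slow-growing and 1101 ± 151 CPM (SD, n = 6) in fast-growing PNs. Apod, which encodes the lipid carrier apolipoprotein D, was at 852 ± 507, 2257 ± 1978 and 6346 ± 1574 CPM in the same groups, and rose by 2.86 ± 0.41 on the log2 scale in fast-growing PN (edgeR adjusted p = 0.000855). The study names Apod among the top upregulated genes of several PN Schwann cell clusters. By share of single cells it describes endoneurial fibroblasts as relatively reduced in PNs and perineurial cells as unchanged. Which cells carry the bulk rise was not tested. Abca9 and the basement membrane collagen gene Col15a1 also rose there, by 1.98 ± 0.24 and 2.33 ± 0.29 (edgeR adjusted p = 0.000296 and 0.000394). Wnt6, at a log2 fold change of 0.40 ± 0.43, was the 1 gene of this list not called in fast-growing PN.

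Of 13 other perineurial genes, 1 rose and 1 fell over all PNs (Ptch1 and Lypd2), 3 rose in fast-growing PN, and none was called by edgeR in slow-growing PN, where 1 had an unadjusted p under 0.05. Among all genes tested, 12.9% were called higher and 13.4% lower over all PNs. These shares were 14.8% and 16.7% in fast-growing PN and 4.12% and 7.13% in slow-growing PN, where 30.3% had an unadjusted p under 0.05. Beside them, neither these counts nor the epineurial counts below are read as a result about the layer. Nor are the endoneurial counts above, for the reason given there. Ptch1, the receptor for hedgehog ligands, rose by 1.29 ± 0.31 in fast-growing PN (edgeR adjusted p = 0.0120), from 111 ± 44 CPM (SD, n = 3) in the controls to 279 ± 78 CPM (SD, n = 6). Tenm2, a teneurin, rose by 1.44 ± 0.46 (edgeR adjusted p = 0.0410), and Aldh1a3, an enzyme of retinoic acid synthesis, by 3.23 ± 0.68 (edgeR adjusted p = 0.00579). Itgb4 and Cav1 had log2 fold changes of 0.60 ± 0.37 and -0.93 ± 0.34 (edgeR adjusted p = 0.264 and 0.0634). Of 11 other epineurial genes, Cd34 rose and Pcolce2 fell in fast-growing PN, by 1.14 ± 0.32 and -1.23 ± 0.42 (edgeR adjusted p = 0.0223 and 0.0488), and none was called by edgeR in slow-growing PN, where 1 had an unadjusted p under 0.05. The most abundant of them, the fibrillin gene Fbn1, lay at 200.2 ± 76 CPM (SD, n = 3) in the controls and 489 ± 273 CPM (SD, n = 6) in fast-growing PN (edgeR adjusted p = 0.0744), and for Cd55, Mfap5 and Tnxb the log2 fold changes were -0.06 ± 0.62, -0.53 ± 0.33 and 0.03 ± 0.40. All 6 general fibroblast markers rose in fast-growing PN, with a median log2 fold change of 1.42, and 0 of 6 passed the edgeR test over all PNs, where 4 had an unadjusted p under 0.05. The study also names Dcn and Lum among the top upregulated genes of PN Schwann cell clusters. Against slow-growing PN, none of the genes in these 4 lists was called by edgeR, while 7 of 9, 4 of 13, 2 of 11 and 6 of 6 had an unadjusted p under 0.05, against 1.27% called and 20.4% with an unadjusted p under 0.05 over all genes tested. In the same comparison 4 of 4 macrophage markers (median log2 difference 1.69) and 11 of 12 fat markers (median -3.70) had an unadjusted p under 0.05, with none called by edgeR.

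**Figure D3:**
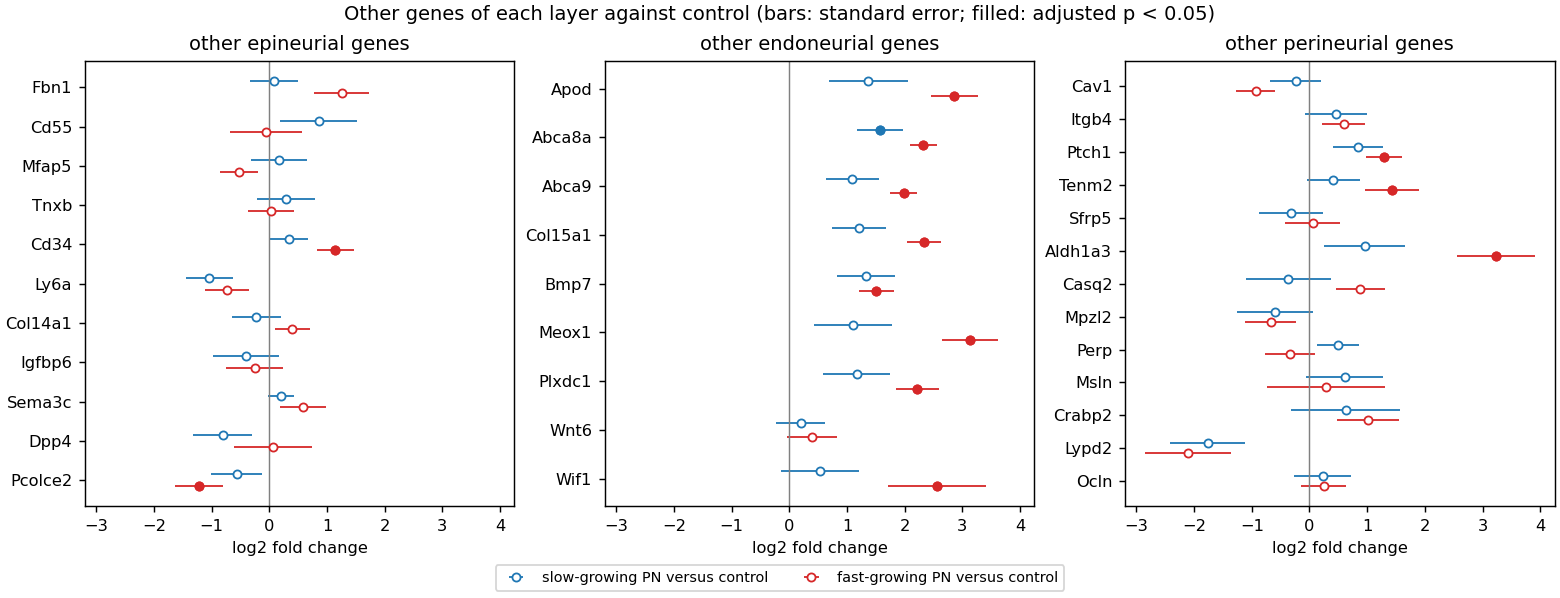
Log2 fold change against control of the other genes listed for each layer, in slow-growing (blue) and fast-growing (red) PN, with bars of 1 standard error. Filled points have an edgeR adjusted p under 0.05. In fast-growing PN 8 of 9 endoneurial genes are filled, against 2 of 11 epineurial and 3 of 13 perineurial genes, while 31.4% of all genes tested were called. The lists were chosen with earlier results of these data known, so these counts are not a test of a layer.

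The last question was whether genes given to 1 layer move together from tumor to tumor. Over the 11 PNs, 7 of the 45 pairs of members were correlated at an adjusted p under 0.05 (Pearson r of log2(CPM + 1), two-sided permutation test with 100000 resamples, adjusted over 45 pairs), 5 positively and 2 negatively. By Spearman rho 4 pairs passed. Of the 12 pairs within a layer 6 passed, 4 of them positive and 2 negative, and of the 33 pairs between layers 1 did. By rho these counts were 3 and 1, and the difference between the 2 kinds of pair was not tested.

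The epineurial genes were correlated in all 3 pairs. Clec3b and Dpt had r = 0.92 (rho = 0.88, adjusted permutation p = 0.00315 for r and 0.0166 for rho), with r = 0.95 within slow-growing and 0.92 within fast-growing PNs, and r = 0.89 without the 2 tumors farthest from the median. Pi16 and Dpt had r = 0.85 (rho = 0.78, adjusted permutation p = 0.00585 for r and 0.0572 for rho), and Pi16 and Clec3b had r = 0.81 (rho = 0.59, adjusted permutation p = 0.0161 for r and 0.229 for rho). Within slow-growing and fast-growing PNs these were 0.69 and 0.91 for Pi16 with Dpt and 0.55 and 0.96 for Pi16 with Clec3b, and without the 2 farthest tumors they were 0.75 and 0.68. The pair of Pi16 and Clec3b did not pass without PN 1071, 1191 or 1202 (r = 0.74, 0.76 and 0.74, adjusted permutation p = 0.0955, 0.0528 and 0.0615). The unadjusted permutation p for r were 0.00016, 0.00052 and 0.00215 for the 3 pairs in this order. PN 1202 and PN 1191 carried the highest levels of Pi16 and Dpt among the 11 tumors and PN 1071 the lowest levels of all 3 genes.

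The perineurial genes did not move as 1 group. Slc2a1 and Tjp1 went together (r = 0.89, rho = 0.90, adjusted permutation p = 0.00315 for r and 0.0166 for rho), with r = 0.91 within slow-growing and 0.90 within fast-growing PNs and 0.67 without the 2 farthest tumors. Moxd1 ran against both: r was -0.86 with Tjp1 (rho = -0.86, adjusted permutation p = 0.00639 for r and 0.0205 for rho) and -0.79 with Slc2a1 (rho = -0.62, adjusted permutation p = 0.0245 for r and 0.229 for rho). The sign was the same within both growth groups, at -0.89 and -0.76 for Tjp1 and -0.77 and -0.87 for Slc2a1, and without the 2 farthest tumors r was -0.68 and -0.51. PN 1203 had the highest Moxd1 and the lowest Slc2a1 and Tjp1; without it r was -0.78 with Tjp1 and -0.67 with Slc2a1 (adjusted permutation p = 0.0553 and 0.192). The pair of Moxd1 and Slc2a1 also did not pass without PN 1071, 1191 or 1214 (adjusted permutation p = 0.0925, 0.0528 and 0.0733). Before adjustment the permutation p for r were 0.00021 for Slc2a1 with Tjp1, 0.00071 for Moxd1 with Tjp1 and 0.00381 for Moxd1 with Slc2a1.

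**Figure D4:**
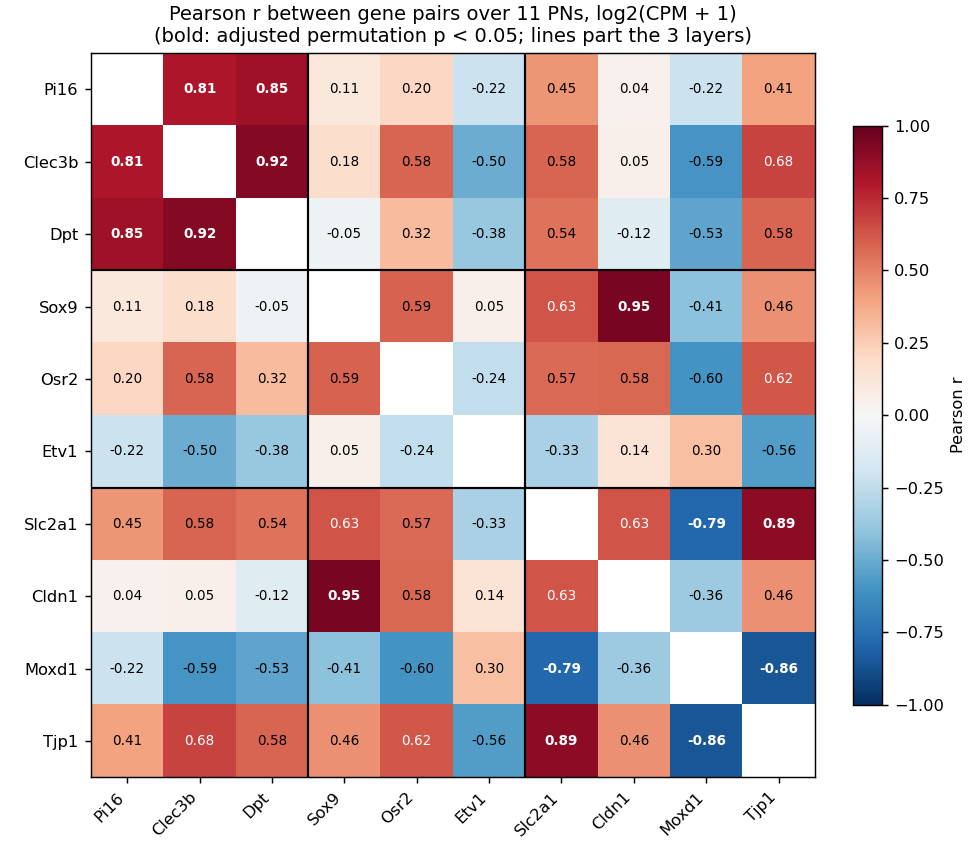
Pearson r between each pair of the 10 genes over the 11 PNs, on log2(CPM + 1), with black lines between the layers. Bold values have an adjusted permutation p under 0.05; the epineurial block is positive throughout, from 0.81 to 0.92, while the perineurial block holds values from -0.86 to 0.89.

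The pair with the highest Pearson r over the 11 PNs crossed layers, though Clec3b with Dpt stood higher by rho and without the 2 farthest tumors. Sox9, listed as endoneurial, and Cldn1, listed as perineurial, had r = 0.95 (rho = 0.82, permutation p = 0.00009 for r, adjusted permutation p = 0.00315 for r and 0.0354 for rho), with r = 0.89 within slow-growing and 0.96 within fast-growing PNs. Without the 2 farthest tumors r was 0.85, and the pair passed in each of the 11 sets that left out 1 PN (r = 0.90 to 0.97). PN 1203 was lowest and PN 1216 highest for both genes. Among the 3 endoneurial genes no pair was called, and r was 0.59 for Sox9 and Osr2, 0.05 for Sox9 and Etv1 and -0.25 for Osr2 and Etv1.

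**Figure D5:**
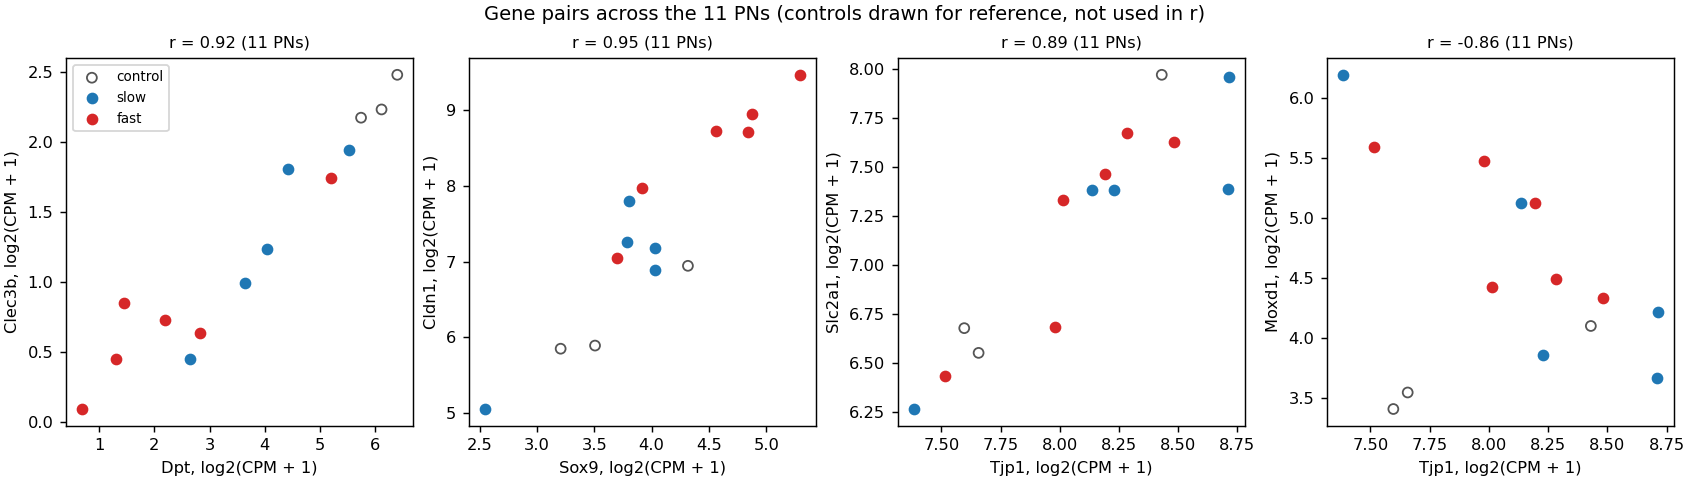
Levels of 4 gene pairs in each library, on log2(CPM + 1), with slow-growing PNs in blue, fast-growing PNs in red and controls as open circles. Clec3b with Dpt, Cldn1 with Sox9 and Slc2a1 with Tjp1 rise together over the 11 PNs (r = 0.92, 0.95 and 0.89), and Moxd1 falls as Tjp1 rises (r = -0.86).

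The members were also set against the scores of 3 marker lists over the 11 PNs, 30 relations in all, of which 3 passed (adjusted over the 30). Cldn1 and Sox9 followed the general fibroblast score, with r = 0.91 and 0.87 (rho = 0.80 and 0.66, adjusted permutation p = 0.0084 and 0.0123 for r, 0.073 and 0.13 for rho), r = 0.87 and 0.88 within slow-growing PNs, 0.79 and 0.77 within fast-growing PNs, and 0.74 and 0.65 without the 2 farthest tumors. Tjp1 followed the endothelial score, with r = 0.80 (rho = 0.77, adjusted permutation p = 0.0355 for r and 0.073 for rho), r = 0.79 within slow-growing and 0.82 within fast-growing PNs, and 0.68 without the 2 farthest tumors. Slc2a1 and Moxd1 had r = 0.68 and -0.74 with the endothelial score (rho = 0.79 and -0.61, adjusted permutation p = 0.0928 and 0.0578 for r). Clec3b and Dpt had r = 0.75 and 0.72 with the fat score (rho = 0.71 and 0.74, adjusted permutation p = 0.0578 and 0.0767 for r). Before adjustment the permutation p for r were 0.00028 for Cldn1, 0.00082 for Sox9 and 0.00355 for Tjp1. All 3 relations that passed were lost without PN 1203 (r = 0.79, 0.72 and 0.72, adjusted permutation p = 0.104 each), and Tjp1 also without PN 1071, 1179, 1202, 1206, 1214 or 1216 (adjusted permutation p = 0.0558 to 0.0934). Whether these cells carry the members' levels was not tested.

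Among 12177 other genes with a mean of at least 5 CPM in PN, those most like each layer over the 11 tumors were picked by Pearson r with the mean z-scored level of its members, as a description. For the epineurial members they were the pseudogene Vmn2r-ps129 (r = 0.94, 5.04 to 9.91 CPM in PN), Efr3a (r = 0.92, 91.5 to 135 CPM) and Cdon, a cell surface receptor of the hedgehog pathway (r = 0.91, 13.95 to 46.8 CPM). For the endoneurial members they were AI607873 (r = 0.97, 3.01 to 87.8 CPM), the helicase gene Ddx41 (r = 0.96, 9.13 to 19.2 CPM) and the interferon gamma receptor gene Ifngr1 (r = 0.96, 27.5 to 97.9 CPM). For the perineurial members they were Btg2, an early response gene (r = 0.96, 4.02 to 35.7 CPM), the matrix protein gene Smoc2 (r = 0.94, 33.3 to 229.8 CPM) and the complement gene C2 (r = 0.93, 4.66 to 31.9 CPM). Of these 9, Btg2 passed the test over all PNs against control, and it fell (-1.48, edgeR adjusted p = 0.0305).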

How the data were processed

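Bulk RNA of 3 control DRGs and 11 PNs went through an amplification kit (Ovation RNA-Seq System v2) before sequencing, which can change the relative yield of transcripts. Per the submitters' processing notes the authors used CASAVA 1.4, FastQC 0.11.0, TopHat2 2.0.9 on mm10, featureCounts 1.5.2 and edgeR 3.16.5; whether counting used strand is not given in the sources used here, and exons of Pi16 and Slc2a1 overlap a gene on the opposite strand. The deposited counts, whole reads per gene, were used as they stand, and the authors' log2 TMM table was not used here. Genes were matched to GENCODE M21 by symbol for transcript lengths.

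Genes passing filterByExpr were tested with edgeR 4.0.16 (TMM, glmQLFit, glmQLFTest; R 4.3.3) on the groups of each comparison, with Benjamini-Hochberg adjustment over all genes tested and a call at an adjusted p under 0.05. The script was tested on simulated data. Alternatives were RLE factors, DESeq2 1.42.0, limma 3.58.1 (voom), no filter, at least 10 counts in the smaller group, all groups in 1 fit, skeletal muscle and fat scores as covariates, a length and GC trend removed, an adjusted p under 0.01 and leaving out each library. A general fibroblast score as covariate, run where that score overlapped between groups, and the relations with marker lists were added after seeing the data. Named besides the members are the 4 most abundant genes of each other layer list, list genes called where few were, and the 3 genes most like each layer. The members and lists were chosen with earlier results of these data known.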

Additional observations from a re-analysis of the deposited data

Results flagged for a closer look

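Within the slow-growing and fast-growing groups, 20 sets of values (10 members in 2 groups) were searched for a library far from the rest of its group. Dixon's ratio of gap to range was taken on CPM and not on the log scale used for the correlations. The cut was the level that chance passes in about 1 in 20 groups of normally distributed values, which CPM need not be. On this scale 5 were found. Of these, 3 are 1 library in 3 correlated genes, so the sets are not independent and the count is not read against that rate. In PN 1202, Pi16 stood at 19.9 CPM, against at most 8.49 CPM in the other slow-growing PNs. In PN 1191 all 3 epineurial genes stood apart from the other fast-growing PNs: Pi16 at 21.4 CPM (next 7.41), Clec3b at 2.35 CPM (next 0.806) and Dpt at 35.7 CPM (next 6.09). In PN 1203, Sox9 stood at 4.84 CPM, below the next slow-growing PN at 12.8 CPM. Of these tumors, 2 hold unusual marker levels: PN 1191 has 33.4 CPM of neuron markers in sum and the highest fat, endothelial and other epineurial sums of the fast-growing PNs (295.9, 342 and 2083 CPM), and PN 1203 has the lowest general fibroblast sum of the PNs, 1249 CPM, and the highest neuron sum, 12390 CPM. In PN 1202 the fat and skeletal muscle sums, 1955 and 12510 CPM, lay inside the range of the other slow-growing PNs. The part of these in the members' levels was not tested.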

How the results depend on the processing

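The counts of called members moved with most choices. Over all PNs, 2 were called; DESeq2 called 6, limma-voom 4, the filter of 10 counts 4, 1 fit of all groups 5, the length and GC correction 1, an adjusted p under 0.01 left 1, the muscle and fat covariates 0, the fibroblast covariate 2 (Etv1 and Moxd1, in place of Etv1 and Pi16), and fits without 1 library 1 to 4. In slow-growing PN, 0 became 1 with RLE factors, 1 with no filter, 1 with the filter of 10 counts, 1 with 1 fit of all groups, 1 with the fibroblast covariate (Dpt), 3 with DESeq2, 3 with limma-voom, and 0 to 2 without 1 library. In fast-growing PN, 5 became 2 at an adjusted p under 0.01, 3 with the length and GC correction, 0 with the muscle and fat covariates, 4 with no filter, 6 with DESeq2, 6 with limma-voom, and 2 to 6 without 1 library. Fast-growing against slow-growing PN gave 1 with DESeq2 and 0 otherwise. With the muscle and fat covariates 470 genes of the whole table were called over all PNs and 0 in the other comparisons. Calls over the whole table moved with the other settings too. Over all PNs there were 4283 in the main fit, 5170 with DESeq2, 4291 with limma-voom, 4026 with the filter of 10 counts and 4792 in 1 fit. In slow-growing PN there were 1769 in the main fit, 3529 with DESeq2, 1844 with limma-voom and 3280 in 1 fit. The counts of members are therefore not read without these. Of 45 pairs, 7 became 4 by Spearman rho, and 5 to 8 without 1 PN; of 30 relations with marker lists, 3 became 0 by rho, and 0 to 5 without 1 PN.

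Signs turned for these values. With the muscle and fat covariates, over all PNs: Dpt 0.0283, Sox9 -0.62 and Cldn1 -0.14; in slow-growing PN: Clec3b 0.25, Dpt 0.0210 and Sox9 0.75; in fast-growing PN: Dpt 0.60, Sox9 -1.98, Osr2 -0.40, Slc2a1 -1.32, Cldn1 -0.90 and Tjp1 -0.28; between growth groups: Pi16 0.35, Clec3b 0.38, Dpt 0.65, Slc2a1 0.11, Moxd1 -0.13 and Tjp1 0.0568. With the fibroblast covariate: Sox9 -0.36 and Slc2a1 -0.21 over all PNs, and Slc2a1 -0.12 in slow-growing PN. With the length and GC correction: Tjp1 -0.10, -0.0022 and -0.18 in the 3 comparisons with control, and Moxd1 -0.0172 between growth groups. Leaving out 1 library: Slc2a1 ran from -0.15 to 0.71 over all PNs, -0.13 to 0.72 in slow-growing, -0.19 to 0.60 in fast-growing PN and -0.28 to 0.12 between growth groups; Sox9 from -0.28 to 0.36 in slow-growing PN; Tjp1 from -0.0225 to 0.42 in fast-growing PN; and between growth groups Pi16 from -1.0004 to 0.0634, Osr2 from -0.21 to 0.21 and Moxd1 from -0.13 to 0.69. The cause was not tested. All other fold changes of members kept their sign. No paired analysis was possible because the groups share no replicate numbers. Clec3b is limited by depth, at under 5 CPM in every library, and 3 controls limit all comparisons with control.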
